A study of Mus musculus with 6 samples.

Results

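Hepatocyte growth factor (HGF), its receptor c-MET, the related receptor RON and the plasminogen activator system were followed in RNA bound to the ribosomes of lung pericytes. The genes are Hgf, Met, Hgfac, Mst1r, Plau, Plat, Plaur and Serpine2. They were chosen by name, through the Ensembl gene identifiers that carry these symbols in the GENCODE M21 annotation, and are 8 of the 21603 genes in each file. Lungs came from mice of strain C57BL/6 at postnatal day 8, with 3 control and 3 Yap1,Wwtr1 iPCKO samples. The labels give the genotypes Yap1+/-;Wwtr1+/- for controls and Yap1-/-;Wwtr1-/- for iPCKO. By the study's methods all 6 mice carried the transgene Pdgfrb(BAC)-CreERT2 and a Cre-dependent Rpl22 allele on a single chromosome. In controls a wild-type copy of Yap1 and of Wwtr1 stood beside the floxed copy, in iPCKO mice both copies were floxed, and all received tamoxifen in the first days after birth. The controls were therefore Cre-positive heterozygotes and not wild-type mice. The Cre transgene follows Pdgfrb, so the tagged ribosomes are those of any recombined Pdgfrb-expressing cell. By the study's methods animals were grouped irrespective of sex, and in these samples sex was partly confounded with genotype, as given below.

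HGF is a secreted growth factor that is built like plasminogen, with kringle domains and a serine protease domain without catalytic activity. It leaves the cell as an inactive chain and is cut by serine proteases, among them HGF activator, the product of Hgfac, before it can activate c-MET. The plasminogen activators uPA (Plau) and tPA (Plat) turn plasminogen into plasmin, uPAR (Plaur) holds uPA on the cell surface, and protease nexin-1 (Serpine2) inhibits thrombin and both activators. RON, the product of Mst1r, is the receptor of macrophage-stimulating protein, another kringle protein. In the lung HGF is known as a signal from mesenchyme to the epithelium, where c-MET is found.

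The RNA was sequenced after anti-HA immunoprecipitation, and each value is the authors' RPKM, the reads of a gene divided by its exon length and by the sequencing depth. RPKM is a level per length, so that levels of different genes can be set side by side. Low values fell on steps of whole reads. The smallest depth that fitted them was 17.41 to 34.67 M reads in controls and 14.23 to 39.6 M reads in iPCKO samples (M, mega). Whole multiples of a depth fit such steps as well, so the depth is fixed only up to a whole factor. With these depths 75.4% to 77.1% of the low values tried came within 0.02 reads of a whole number. Replicates of a group correlated with Pearson's r of 0.977 to 0.992 across genes and samples of different groups with 0.929 to 0.962. The labels do not say whether samples came from separate litters, so p-values measure the spread between these samples. Yap1, the first of the deleted genes, had 13.2, 11.5 and 12.4 RPKM in controls and 5.76, 5.83 and 5.25 RPKM in iPCKO samples (log2 fold change -1.12, adjusted p = 0.00017, limma). Wwtr1 had 53.8 to 71.3 RPKM in controls and 60.3 to 63.5 RPKM in iPCKO samples, so the level of this gene did not separate the labels. The tables give 1 value per gene, and reads of the deleted exons could not be taken apart. The pericyte markers were high in all samples. Pdgfrb had 1369 to 1666 RPKM in controls and 1193 to 1447 RPKM in iPCKO samples, and none of the 8 pericyte markers was at 0, although 3 of them were called higher and 2 lower in iPCKO samples.

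The libraries differed in ways that the groups do not fully explain. Y-linked transcripts were found in controls 1 and 3 (Ddx3y 17.2 and 19.8 RPKM), whereas control 2 and all iPCKO samples had Ddx3y listed at 0. Sex was therefore partly confounded with genotype. Marker lists of other cells were not at 0. The summed level of 6 neutrophil markers was 71.7 to 99.9 RPKM in controls and 404 to 4326 RPKM in iPCKO samples, in the order iPCKO 1, 2 and 3. Over 6 macrophage markers it was 12.6 to 21.6 RPKM against 24.1 to 40.6 RPKM, and over 4 platelet markers 4.93 to 6.7 against 18.7 to 57.2 RPKM. The 11 epithelial markers summed to 553 to 636 RPKM in controls and 809 to 858 RPKM in iPCKO samples, most of it Sftpc (338 to 381 against 433 to 467 RPKM). Endothelial (143 to 154 against 148 to 162 RPKM), pericyte and smooth muscle sums overlapped between the groups, with Cldn5 at 33.2 to 41.6 against 32 to 44.6 RPKM and Acta2 at 594 to 757 against 626 to 760 RPKM. Fibroblast markers summed to 151 to 172 RPKM in controls and 109 to 130 RPKM in iPCKO samples. Of these Npnt had the highest mean over all samples (58.2 to 65.7 against 24.2 to 29.5 RPKM). In every iPCKO sample it lay below Pdgfra and Tcf21. The mesothelial sum was at most 9.44 RPKM, with Msln at 2.98 to 3.63 against 5.36 to 7.64 RPKM.

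To set the levels beside regulatory sequence, the 250 bases before the annotated transcription starts were taken from RefSeq (GRCm38.p6), which held windows for 6 of the 8 genes. The windows were searched on both strands for GGAATG, a core motif of the TEAD factors through which YAP1 and TAZ act on DNA, and for TGANTCA, the motif of AP-1. No window of these genes held GGAATG, which 12.6% of all 32851 windows of this length held. TGANTCA was found in the windows of Met and Plaur with the first base at -54 and -69 from the start, and in 6.7% of all windows. Shown 5′ to 3′ are the windows of the ligand and of 3 receptors, with the matching bases in capitals. A match or its absence is a description of the letters in this window and nothing more. Sequence outside the windows was not searched.
Hgf, upstream start, chr5:16553245-16553494, plus strand: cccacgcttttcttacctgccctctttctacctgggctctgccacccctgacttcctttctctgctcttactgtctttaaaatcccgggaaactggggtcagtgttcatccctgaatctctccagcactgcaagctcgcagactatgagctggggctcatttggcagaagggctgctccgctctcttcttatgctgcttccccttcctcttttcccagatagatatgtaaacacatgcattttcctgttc
Met, chr6:17463707-17463956, plus strand: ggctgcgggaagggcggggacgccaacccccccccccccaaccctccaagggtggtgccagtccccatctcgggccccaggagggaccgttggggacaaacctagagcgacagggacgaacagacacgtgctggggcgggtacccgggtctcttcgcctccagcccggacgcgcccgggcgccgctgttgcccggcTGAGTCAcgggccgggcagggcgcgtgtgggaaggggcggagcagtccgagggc
Plaur, chr7:24462233-24462482, plus strand: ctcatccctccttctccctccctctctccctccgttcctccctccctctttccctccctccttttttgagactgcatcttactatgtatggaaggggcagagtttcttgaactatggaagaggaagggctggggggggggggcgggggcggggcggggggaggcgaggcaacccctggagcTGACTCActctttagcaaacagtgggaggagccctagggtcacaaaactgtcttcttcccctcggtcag
Mst1r, upstream start, chr9:107906639-107906888, plus strand: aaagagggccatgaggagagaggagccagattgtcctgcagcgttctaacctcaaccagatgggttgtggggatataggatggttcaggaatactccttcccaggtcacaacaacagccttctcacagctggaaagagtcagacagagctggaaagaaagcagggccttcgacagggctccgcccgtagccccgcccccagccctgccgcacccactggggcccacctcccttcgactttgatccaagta

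The comparison asks how the deletion of Yap1 and Wwtr1 in pericytes changed the ligand, its receptors and the proteases around it. Hgf was lower and Mst1r, Plaur and Plat were higher in the ribosome-bound RNA of Yap1,Wwtr1 iPCKO samples. This RNA also held transcripts of other cells, at the values given above, and sex was partly confounded with genotype. Serpine2 and Met differed in every sample in the same direction but missed the thresholds, and Plau and Hgfac were low in both groups with overlapping values. Genes were called where limma gave an adjusted p-value under 0.01 together with a log2 fold change beyond 0.5 in either direction, on log2(RPKM + 0.1), a scale that understates the change of low genes. Of the 8 genes 7 reached 1 RPKM in at least 3 samples and were tested, and 4 of the 7 were called. Over all 12034 tested genes 6.79% were called, 4.11% higher and 2.68% lower in iPCKO. The values of the groups did not overlap for 6 of the 7 tested genes, against 35.5% of all tested genes. The median log2 fold change of the 7 genes was 0.44, with 5 above and 2 below 0. From these whole-lung lysates alone, fewer recombined cells that carry a transcript and less of it per cell cannot be told apart. At other ages the study found no significant change in the abundance of cells positive for PDGFRβ, the product of Pdgfrb. It also reported reduced Hgf in such cells after sorting.

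**Figure D1:**
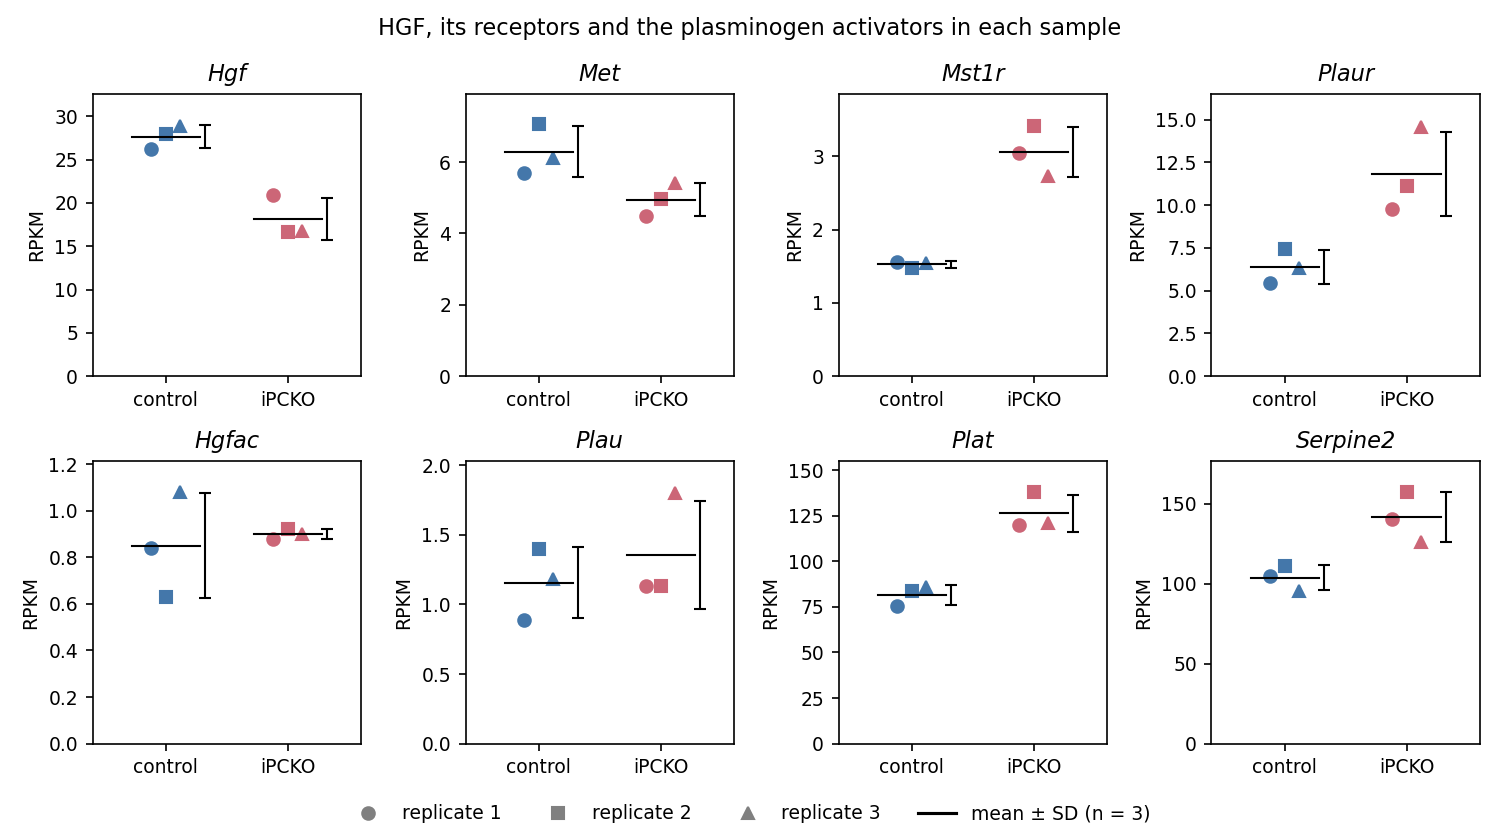
RPKM of the 8 genes in each of the 3 control and 3 iPCKO samples (linear axes from 0, symbols give the replicate number, line and bar give mean and SD). For Hgf and Met all iPCKO points lie below the controls, for Mst1r, Plaur, Plat and Serpine2 all lie above, and Hgfac and Plau overlap.

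Hgf (ENSMUSG00000028864, chromosome 5 of GRCm38, 16553495 to 16620152, plus strand) encodes the ligand. It had 26.2, 27.9 and 28.8 RPKM in control 1, 2 and 3 and 20.9, 16.7 and 16.8 RPKM in iPCKO 1, 2 and 3. All iPCKO samples were below all controls, and iPCKO 1 was the nearest to them. The iPCKO mean of 18.1 ± 2.43 RPKM was 65.5% of that of the controls, 27.7 ± 1.34 RPKM (SD, n = 3). On the log2 scale the difference was -0.61 (SE 0.11, 95% interval -0.86 to -0.37, adjusted p = 0.0063, limma). In controls Hgf ranked 1873rd of the genes by level, within the highest 8.67%. The exons of Hgf share 484 bases with Gm43489, an unclassified gene on the same strand that the tables do not list. Fibroblasts are another source of Hgf, and beside it the fibroblast sum was lower in every iPCKO sample, with 2 of its 5 markers below and 1 above all controls. Its part in the level of Hgf was not tested. It held without iPCKO 1 (adjusted p = 0.0015), but the adjusted p-value was 0.014, 0.025 and 0.032 without control 1, 2 and 3 and 0.031 and 0.027 without iPCKO 2 and 3, with log2 fold changes of -0.72 to -0.56 over the 6 fits. It was 0.012 without an intensity trend.

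The genes whose pattern over the 6 samples was most like that of Hgf on log2(RPKM + 0.1) were Amt, Fam84a, Fbxo25, Cdh6 and Zfp942, with Pearson's r of 0.993 to 0.996. These samples fall into the compared groups, and a high r follows from any difference between them, so the values are a description. Cdh6, a cadherin, had 9.6 to 10.48 RPKM in controls and 6.32 to 7.29 RPKM after deletion, with iPCKO 1 the highest of these as for Hgf, and was called (-0.6 on the log2 scale, adjusted p = 0.0037, limma). Amt, which encodes the aminomethyltransferase of the glycine cleavage system, had 7.76 to 8.23 and 3.82 to 5.59 RPKM and was called as well (-0.86, adjusted p = 0.0054, limma). Fam84a fell further, from 7.16 to 9.98 RPKM in controls to 0.98 to 3.34 RPKM (-2.36 on the log2 scale, adjusted p = 0.0044, limma). Fbxo25 (log2 fold change -0.27, adjusted p = 0.071) and Zfp942 (-0.43, adjusted p = 0.031) did not pass.

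Met (ENSMUSG00000009376, chromosome 6, 17463800 to 17573980, plus strand), the HGF receptor gene, had 5.68, 7.07 and 6.1 RPKM in controls and 4.48, 4.96 and 5.4 RPKM in iPCKO samples. The lowest control and the highest iPCKO sample lay 0.28 RPKM apart. The mean was 6.28 ± 0.71 RPKM (SD, n = 3) against 4.95 ± 0.46 RPKM, and the log2 fold change of -0.34 did not pass (95% interval -0.6 to -0.07, adjusted p = 0.091, limma). The interval reaches beyond the threshold of 0.5, so these data leave room for a decrease of that size. In the same samples the epithelial markers Epcam and Cdh1 had 1.44 to 1.64 and 4 to 5.07 RPKM in controls and 1.53 to 1.9 and 5.09 to 7.1 RPKM in iPCKO samples. Epithelial RNA was thus present beside Met in every library, and none of the 11 epithelial markers was lower in every iPCKO sample. Its part in the level of Met was not tested. The level of Hgf was 3.95 to 4.73 times that of Met in controls and 3.11 to 4.67 times in iPCKO samples.

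Mst1r (ENSMUSG00000032584, chromosome 9, 107906873 to 107920383, plus strand) encodes RON, a receptor tyrosine kinase of the MET family. It had 1.56, 1.47 and 1.55 RPKM in controls and 3.04, 3.41 and 2.73 RPKM in iPCKO samples. The controls lay within 0.09 RPKM of each other, and every iPCKO sample was above all of them. The mean doubled, from 1.53 ± 0.05 RPKM (SD, n = 3) to 3.06 ± 0.34 RPKM, and on the log2 scale the difference was 0.95 (SE 0.13, 95% interval 0.65 to 1.25, adjusted p = 0.002, limma). On the annotated exon length this level corresponds to about 129 to 269 reads in controls and 194 to 677 reads in iPCKO samples. With 1 RPKM in place of 0.1 added before the logarithm the difference was 0.68. It passed in 4 of 6 fits that left out a sample. The adjusted p-value was 0.011 without control 3 and 0.014 without iPCKO 2. Mst1, the gene of its ligand, had at most 0.11 RPKM in any sample and was not tested. RON is known from epithelium and from macrophages, and both of these marker sums were higher in iPCKO samples, at values given above. Of the 11 epithelial markers 5 lay above all controls in every iPCKO sample, as did all 6 macrophage markers. In each of these lists 1 marker was called, Sftpb and Marco. Marco met the filter of 1 RPKM through the iPCKO samples alone (0.28 to 0.62 RPKM in controls, 1.17 to 2.35 RPKM in iPCKO samples). The part of epithelial cells and macrophages in the level of Mst1r was not tested.

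Plaur (ENSMUSG00000046223, chromosome 7, 24462484 to 24475968, plus strand), the gene of the uPA receptor, had 5.42, 7.44 and 6.32 RPKM in controls and 9.78, 11.1 and 14.6 RPKM in iPCKO samples. The iPCKO samples were above all controls and spread more widely than these. The mean was 6.39 ± 1.01 RPKM (SD, n = 3) against 11.8 ± 2.47 RPKM, 1.85 times as high. On the log2 scale this was a difference of 0.87 (SE 0.16, 95% interval 0.49 to 1.24, adjusted p = 0.009, limma), close to the threshold. The call was lost without control 1, 2 or 3 (adjusted p = 0.031, 0.011 and 0.036) and without iPCKO 2 or 3 (0.028 and 0.023), and it held without iPCKO 1 (0.005). It was lost as well with median-ratio scaling between samples (0.012), without the filter on low values (0.017) and without an intensity trend (0.015).

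Neutrophils and macrophages are known to express Plaur. Within the iPCKO group Plaur had the same order of samples as the neutrophil sum, which was 404, 1813 and 4326 RPKM in iPCKO 1, 2 and 3. The platelet, epithelial and smooth muscle sums had this order as well. The macrophage sum did not (24.1, 40.6 and 36.1 RPKM). For all 6 neutrophil and all 6 macrophage markers the lowest iPCKO sample was above the highest control. S100a9, the most abundant of the neutrophil markers, had 39.9 to 52.7 RPKM in controls and 221, 981 and 2346 RPKM in iPCKO 1, 2 and 3. Csf1r, the most abundant macrophage marker, had 5.55 to 10.8 RPKM in controls and 11.9 to 21.3 RPKM in iPCKO samples. From iPCKO 1 to iPCKO 3 Plaur differed by 4.79 RPKM. Without iPCKO 3, the sample with the highest neutrophil sum, the log2 fold change of Plaur was 0.71. Within iPCKO 1 the neutrophil sum was lowest of this group but above every control, and Plaur, at 9.78 RPKM, was above every control as well. The part of these cells in the level of Plaur was not tested.

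**Figure D2:**
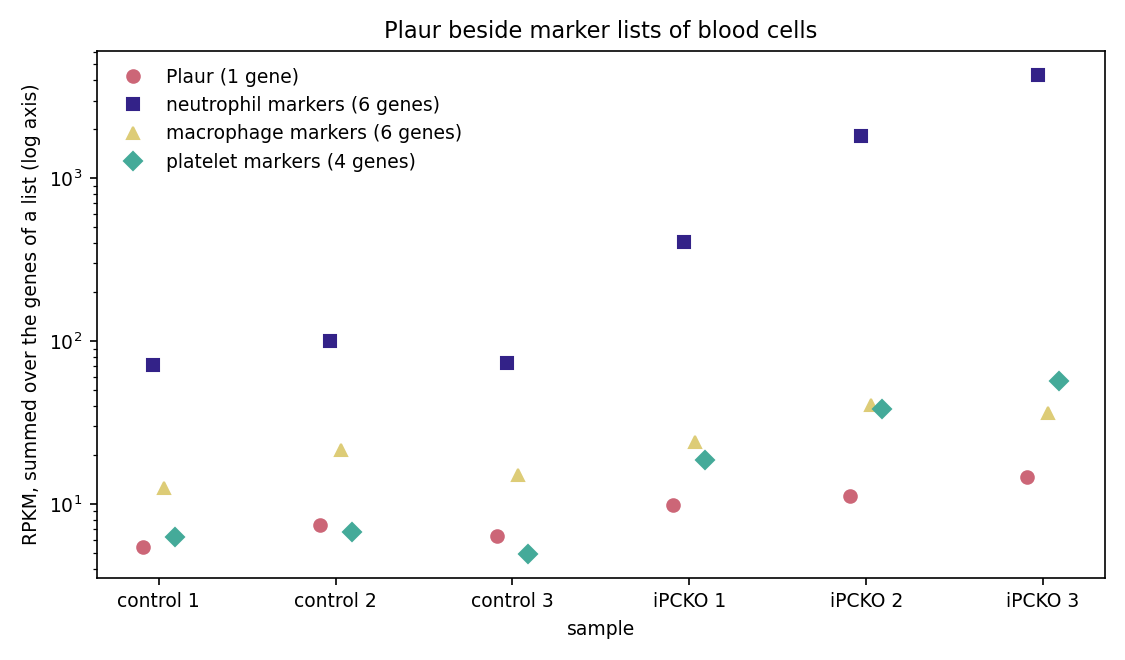
Plaur and the summed markers of neutrophils (6 genes), macrophages (6) and platelets (4) in each of the 6 samples, as RPKM on a log axis. Plaur goes from 5.42 RPKM in control 1 to 14.6 RPKM in iPCKO 3, while the neutrophil sum goes from 71.7 to 4326 RPKM between the same samples.

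Plat (ENSMUSG00000031538, chromosome 8, 22757727 to 22782844, plus strand), which encodes tPA, was the predominant activator gene. It had 75.2, 83.6 and 85.9 RPKM in controls and 119.9, 138 and 121 RPKM in iPCKO samples. The groups lay apart by 34 RPKM, compared with a range of 10.7 RPKM within controls. The mean rose from 81.6 ± 5.61 RPKM (SD, n = 3) to 126 ± 9.99 RPKM, 1.55 times, a log2 difference of 0.63 (SE 0.1, 95% interval 0.4 to 0.86, adjusted p = 0.0042, limma). Plat ranked 443rd by level in controls, within the highest 2.05% of genes. Without iPCKO 1 it passed (adjusted p = 0.0054). The adjusted p-value was 0.013, 0.016 and 0.017 without control 1, 2 and 3 and 0.022 and 0.014 without iPCKO 2 and 3. Endothelial cells also express Plat, and their marker sum overlapped between the groups. Pecam1 had 14.4 to 18.7 RPKM in controls and 17.1 to 17.3 RPKM in iPCKO samples. The part of these cells in the level of Plat was not tested. Of the 8 endothelial markers Kdr alone was called, from 13 to 16.7 RPKM in controls to 24 to 27.9 RPKM.

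Plau (ENSMUSG00000021822, chromosome 14, 20836660 to 20843385, plus strand), the gene of uPA, had 0.89, 1.4 and 1.18 RPKM in controls and 1.13, 1.13 and 1.8 RPKM in iPCKO samples. The groups overlapped, and iPCKO 3 was the highest sample. Its log2 fold change was 0.2 (95% interval -0.34 to 0.74, adjusted p = 0.62, limma). The interval includes differences past the threshold in the upward direction, and about 41 to 106 reads stood behind each value. Without iPCKO 3 the log2 fold change was -0.01. Plat was 59.9 to 84.7 times as high as Plau in controls and 67.4 to 122 times in iPCKO samples. The receptor Plaur was 5.33 to 6.1 times as high as Plau in controls and 8.11 to 9.83 times in iPCKO samples.

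Hgfac (ENSMUSG00000029102, chromosome 5, 35041509 to 35048461, plus strand), which encodes HGF activator, had 0.84, 0.63 and 1.08 RPKM in controls and 0.88, 0.92 and 0.9 RPKM in iPCKO samples. It reached 1 RPKM in control 3 alone and was not tested. All iPCKO values lay inside the range of the controls, and the exact permutation test gave p = 0.7 (two-sided, smallest possible p = 0.1 for 3 samples against 3). In the fit without the filter the log2 fold change was 0.1 (95% interval -0.4 to 0.6, adjusted p = 0.82, limma). The level rests on about 37 to 128 reads.

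Serpine2 (ENSMUSG00000026249, chromosome 1, 79794197 to 79861180, minus strand), the gene of protease nexin-1, had the highest level of the 8 genes. It had 105, 111 and 95.6 RPKM in controls and 141, 158 and 126 RPKM in iPCKO samples, so that every iPCKO sample was above every control. The mean was 104 ± 7.73 RPKM (SD, n = 3) against 142 ± 15.7 RPKM, 1.36 times as high. The log2 fold change of 0.44 did not pass either threshold (SE 0.11, 95% interval 0.18 to 0.7, adjusted p = 0.033, limma). The level of Plat was 0.72 to 0.9 times that of Serpine2 in controls and 0.85 to 0.96 times in iPCKO samples, and these ranges overlapped.

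**Figure D3:**
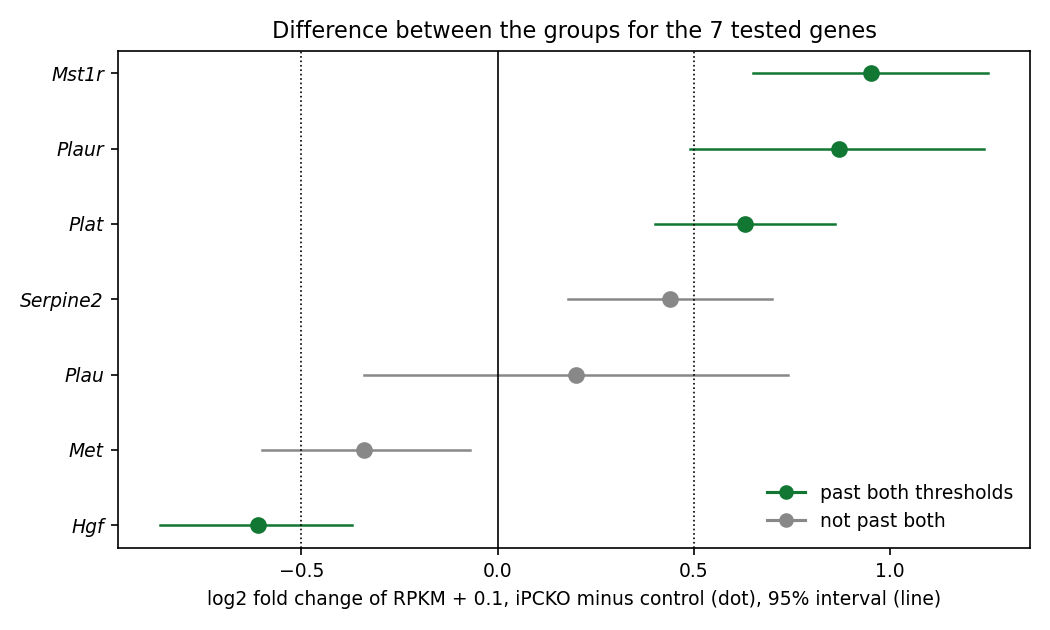
Log2 fold change of RPKM + 0.1, iPCKO minus control, for the 7 tested genes, with 95% intervals from limma and dotted lines at the threshold of 0.5. Mst1r, Plaur, Plat and Hgf passed both thresholds, and the interval of Plau covers 0.

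Ordered by level per length in controls, Serpine2 came first, followed by Plat, Hgf, Plaur, Met, Mst1r, Plau and Hgfac. The samples of Plaur and Met overlapped in this order, as did those of Plau and Hgfac, and the other neighbours lay apart. The order of the means was the same in iPCKO samples, where Plaur (11.8 RPKM) lay apart from Met (4.95 RPKM) and Serpine2 overlapped with Plat.

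Other genes of the pathway were taken from a list of 58 genes by role, of which 57 are in the files and 44 were tested. Of the 44 genes 2 were called, both higher in iPCKO samples and none lower (limma, 21 of the 44 at an unadjusted p below 0.05, 9 of these lower), against 6.79% of all tested genes called and 29.7% at an unadjusted p below 0.05. The median log2 fold change was 0.09, with a median of 0 over all tested genes. Values of the groups did not overlap for 18 of the 44, near the 35.5% of all tested genes.

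Among the inhibitors Serpini1, which encodes neuroserpin, an inhibitor of tPA, rose more than any of the 8 genes. It had 0.17, 0.23 and 0.21 RPKM in controls and 2.2, 3.69 and 2.17 RPKM in iPCKO samples. The lowest iPCKO sample was 9.47 times the highest control, as the tables give them. The difference on the log2 scale was 3.17 (SE 0.25, adjusted p = 0.00015, limma). Serpini1 met the filter of 1 RPKM through the iPCKO samples alone. In the fit without the filter its log2 fold change was 3.17 as well (adjusted p = 0.00038, limma). It was 1.59 with 1 RPKM and 3.64 with 0.01 RPKM added before the logarithm. Even so its level stayed below that of Plat, which was 37.3 to 55.8 times as high in iPCKO samples and 365 to 455 times in controls.

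**Figure D4:**
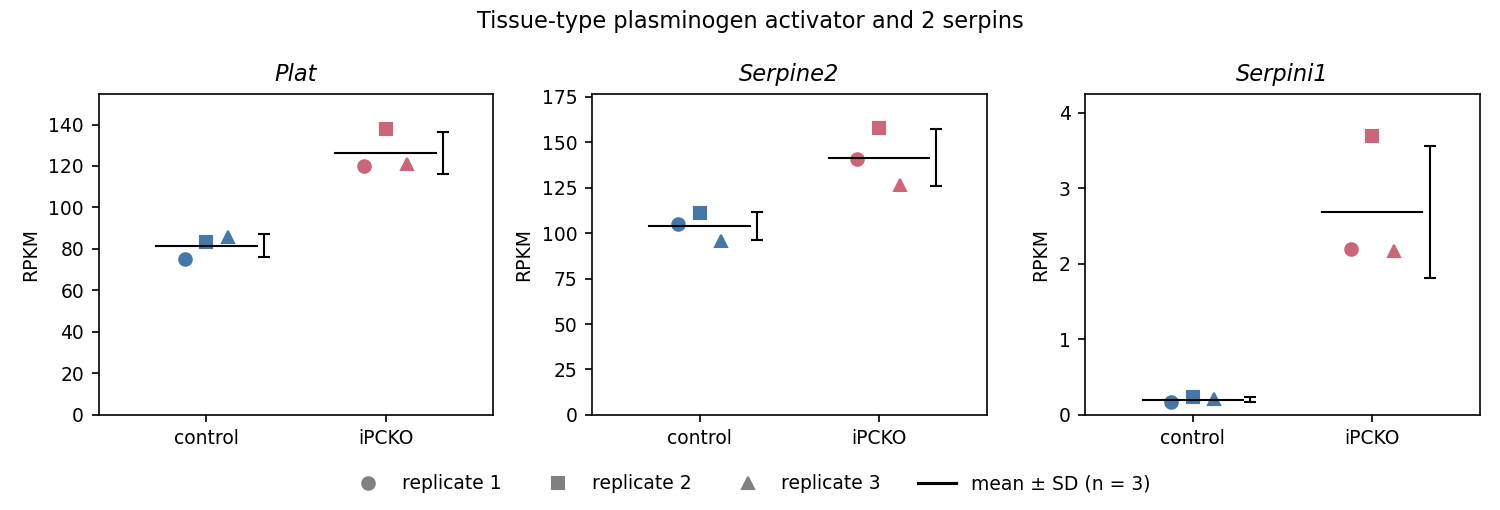
RPKM of Plat and of the serpin genes Serpine2 and Serpini1 in each sample (linear axes from 0 that differ between panels, line and bar give mean and SD of 3 samples). Serpini1 stays at or below 0.23 RPKM in controls and reaches 2.17 to 3.69 RPKM in iPCKO samples.

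Plg, the gene of plasminogen itself, had at most 0.03 RPKM in any sample. Of the 7 tested genes for binding partners none was called (limma, 3 at an unadjusted p below 0.05, and S100a10 alone with an adjusted p below 0.01). S100a10, a plasminogen and tPA receptor subunit that pairs with annexin A2, had 67 to 71.8 RPKM in controls and 46 to 53.1 RPKM after deletion. Its log2 fold change of -0.49 (adjusted p = 0.0082) stayed just inside the threshold of 0.5. Anxa2, the most abundant of these genes, had 108 to 114 and 111 to 124 RPKM. Clec3b, the gene of the plasminogen-binding protein tetranectin, had 35.3, 22.4 and 6.03 RPKM in controls and 6.39, 6.47 and 4.61 RPKM in iPCKO samples. Control 3 lay among the iPCKO samples, and the log2 fold change of -1.53, the lowest of the 44 genes, did not pass (adjusted p = 0.092, limma). Without control 3 it was -2.27 and passed (adjusted p = 0.0012). Vtn (vitronectin) was 103 RPKM in iPCKO 1 against 43.4 to 55.5 RPKM in the other samples and did not pass (adjusted p = 0.52).

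In the group of clearance receptors and uPAR partners Itgb3 was called. It encodes integrin beta 3, which forms the vitronectin receptor with integrin alpha V and is also a platelet protein. Itgb3 had 3.91, 4.68 and 4.83 RPKM in controls and 10.7, 12 and 13.2 RPKM in iPCKO samples, a log2 difference of 1.4 (SE 0.12, adjusted p = 0.00019, limma). In the same samples all 4 platelet markers lay above the controls, and Ppbp, the most abundant, had 1.17 to 2.02 RPKM in controls and 4.72 to 25.9 RPKM after deletion. Their part in the level of Itgb3 was not tested. Its partner Itgav had 29.2 to 30.6 and 33.5 to 36.6 RPKM and did not pass (log2 fold change 0.24, adjusted p = 0.084). The clearance receptor gene Lrp1 (110 to 134 and 124 to 135 RPKM) and the integrin beta 5 gene Itgb5 (82.8 to 124 and 103 to 131 RPKM) were the most abundant of this role and overlapped. Fpr2 and Itgam, genes of myeloid cells, had log2 fold changes of 2.3 and 2.09 with adjusted p-values of 0.03 and 0.014, and passed with the replicate number as a block, when 4 of the 44 genes were called.

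Of the 22 tested partners of c-MET signalling none was called (limma, 10 at an unadjusted p below 0.05), and for 8 of them the groups did not overlap, near the 35.5% of all tested genes. Of these 8, Sos1, Crk, Nrp1 and Itga6 lay lower and Stat3, Sh3kbp1, Ptprj and Ptpn1 higher in iPCKO samples. Plxnb2 and Nrp1 were the most abundant. Plxnb2 had 72.3 to 81.6 RPKM in controls and 67.4 to 78.1 RPKM in iPCKO samples. Nrp1, a co-receptor of several growth factors, had 75.1 to 83 and 56.8 to 63.6 RPKM (-0.41 on the log2 scale, adjusted p = 0.017). Stat3, a transcription factor downstream of c-MET, had 10.2 to 11 and 12.3 to 16.2 RPKM (0.47, adjusted p = 0.03, limma), and it passed without iPCKO 1 (0.6, adjusted p = 0.0036). Gab1, the main docking protein of c-MET, had 55.2 to 68.1 and 47.6 to 55.9 RPKM, which overlapped (-0.31, adjusted p = 0.1). Among proteins that control HGF and MSP activation, 3 of 8 genes were tested and none was called (limma, 1 at an unadjusted p below 0.05). The matriptase gene St14 had 1.22 to 1.62 and 1.44 to 1.6 RPKM. The inhibitor genes Spint2 and Spint1, both of epithelial type, had 5.99 to 7.96 and 1.16 to 1.64 RPKM in controls and 5.44 to 6.59 and 1.67 to 2.48 RPKM in iPCKO samples.

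The presence of Y-linked transcripts in controls 1 and 3 was set beside these genes. Control 2, the control without them, had more Hgf and Met and less Mst1r, Plaur, Plat and Serpine2 than each iPCKO sample. Controls 1 and 3 did as well, as the groups do not overlap for these genes, so the comparison says nothing particular to control 2. With the Y-linked level as a covariate the log2 fold changes were -0.63 for Hgf, -0.51 for Met, 1 for Mst1r, 0.64 for Plaur, 0.6 for Plat and 0.35 for Serpine2. Only control 2 shares the Y-linked level of the iPCKO samples, so the group difference rests mainly on that control there. The SE was 0.17 for Hgf and 0.16 for Plat, against 0.11 and 0.1 without the covariate. In that fit none of the 7 genes passed the thresholds (limma, 5 at an unadjusted p below 0.05), and the number of called genes among all 12034 was 119 in place of 817. The lowest adjusted p-value of the 7 genes there was 0.041, for Mst1r.

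**Figure D5:**
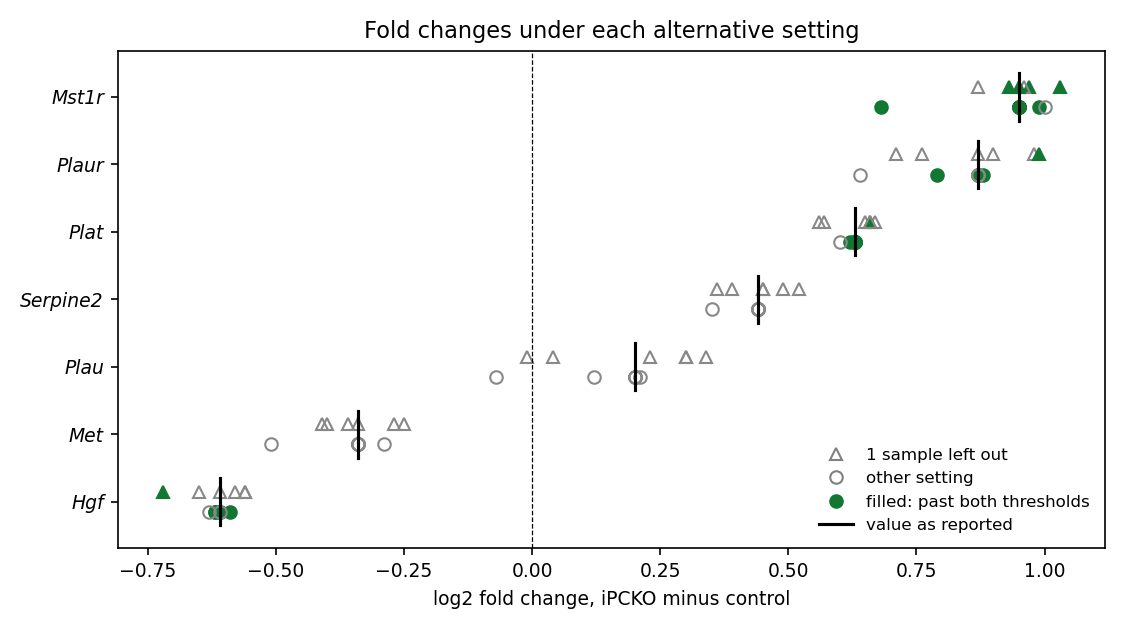
Log2 fold change of the 7 tested genes under each alternative setting (triangles leave out 1 sample, circles are other settings, filled symbols pass both thresholds, the vertical line is the reported value). Every symbol of Hgf and Met lies below 0 and every one of Mst1r, Plaur, Plat and Serpine2 above 0, while those of Plau run from -0.07 to 0.34.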

How the data were processed

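RNA bound to HA-tagged ribosomes was measured in lungs of 3 control and 3 iPCKO mice. The authors mapped reads of stranded total RNA libraries with TopHat against mm10, the UCSC name of GRCm38, obtained gene counts with HTSeq 0.6.1 and deposited 1 RPKM table per sample. Which exon length entered the RPKM values is not given in the sources used here, nor is the strand setting of the counting. Groups and replicate numbers follow the sample labels.

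From these tables log2(RPKM + 0.1) was fitted with limma 3.58.1 (R 4.3.3, lmFit, eBayes with an intensity trend) for 12034 genes that reached 1 RPKM in 3 or more of 6 samples, with Benjamini-Hochberg adjustment over all of them and no replicate block. RPKM values are not read counts, so no count model was used. The thresholds are those of the study's methods. The fit was tested on simulated data. Symbols for 21452 genes and coordinates came from GENCODE M21 on the same assembly. Read numbers were estimated from the annotated exon length and the smallest fitting depth, and are approximate. Promoter windows are from RefSeq.

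The 8 genes and all lists were chosen with earlier results of these data known. Named are the 8 genes, the deleted genes, pathway genes past the thresholds, the 2 most abundant genes of each role, the 5 genes most like Hgf and the most abundant marker of lists. A gene of the wider list that the rule names is not reported here. Other pathway genes and markers were named after their values were seen. Alternatives were a replicate block, other filters, pseudocounts of 1 and 0.01 RPKM, median-ratio scaling, no trend, other thresholds, a Y-linked covariate and each sample left out. Python 3.11.15 with pandas 2.3.3 and scipy 1.17.1 was used.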

Additional observations from a re-analysis of the deposited data

How the results depend on the processing

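The replicate numbers of the labels do not pair the samples beyond a shared number, since deviations from the group means correlated with 0.24, 0.09 and 0.02 between same-numbered samples. With the replicate block 4 of the 8 genes passed as before, as did 4 genes of the wider list in place of 2 and 922 of all genes in place of 817. Requiring 1 RPKM in all 6 samples left 1 called gene of the wider list, as Serpini1 was no longer tested. Without an intensity trend 2 of the 8 genes passed, Mst1r and Plat. With the Y-linked covariate 0 of the 7 tested genes (limma, 5 at an unadjusted p below 0.05) and 119 of all genes passed, and Plau turned to -0.07. The cause was not tested. An adjusted p-value below 0.05 gave 1313 of all genes and 4 of the wider list. An absolute log2 fold change above 1 gave 411 of all genes and 0 of the 8 (limma, 6 at an unadjusted p below 0.05). Leaving out each sample in turn gave 382 to 899 of all genes, 0 to 4 of the 8 genes and 2 to 5 of the wider list. No gene of the 8 passed without control 3 or without iPCKO 2, the library of highest estimated depth in each group. In each of these limma fits 6 had an unadjusted p below 0.05. Plau was at -0.01 to 0.34 over the fits that left out a sample. The direction of the other 6 tested genes was the same in every fit. Marker sums moved by less than the spread between replicates with median-ratio scaling. Plau and Hgfac rest on the fewest estimated reads of the 8 genes, 37 to 128 per sample.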
